A study of Mus musculus with 15 samples.

Results

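The tight junction and trophectoderm transport genes were 9 of the 48709 genes counted in these libraries. They were chosen by name for what their proteins do, with earlier results of these data known and with no threshold on a measured value: the claudins *Cldn3*, *Cldn4*, *Cldn6* and *Cldn7*, the occludin gene *Ocln*, the junctional adhesion molecules *Jam2* and *F11r*, the water channel *Aqp3* and the sodium pump subunit *Atp1b1*. All 9 were followed through the 15 RNA-seq libraries of both time courses of OCT4 removal, and each stood above 1 CPM (counts per M counted reads, where M stands for mega, with TMM scaling) in every library. Most of the claudin and adhesion genes were higher late in both courses, *Jam2* was lower in both, and *Aqp3* and *Atp1b1* took a different path in each course.

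Tight junctions seal the space between neighboring epithelial cells. Claudins form the strands that decide which ions pass between cells, occludin runs along the same strands, and junctional adhesion molecules are immunoglobulin-type receptors that sit at the junction and help place polarity proteins there. In the early mouse embryo the outer cells become the trophectoderm, whose sodium pump and aquaporins draw sodium and water inward to fill the blastocoel cavity while the tight junctions keep the fluid from leaking out.

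The experiment followed gene expression in mouse ESCs as OCT4, the transcription factor encoded by *Pou5f1*, was lost. CreER ESCs (mixed 129SV and C57BL/6 background) carry a floxed *Oct4* allele over a null allele and express CreER, a tamoxifen-activated recombinase, from the CAG promoter. They were treated with 500 nM 4OHT and sequenced at 0, 12, 18, 24 and 36 h, with 2 libraries at each time. O4AID ESCs (129SV background, the ZHBT line in the growth notes) are *Oct4*-/- with a TetOFF *Oct4* transgene, which was kept silent with doxycycline at all times, 0 h included. Their OCT4 comes from a CAG-driven transgene, Oct4AID, whose protein carries a degron that auxin acts on, and they express the auxin receptor Tir1 from CAG. They were treated with 500 µM IAA, an auxin, and sequenced at 0, 1.5, 6, 10 and 24 h, with 1 library at each time. All cells grew on gelatin in N2B27 medium with PD03, Chiron and mLIF. The 0 h libraries were untreated, and no library given vehicle alone was analysed here, so loss of OCT4 and exposure to the drug cannot be told apart, and recombinase activity likewise belongs to every treated CreER library. The labels do not say whether the paired CreER libraries came from separate cultures, so their p-values measure only the spread between these libraries.

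The CreER libraries held 21.7 to 30.8 M counted reads and the O4AID libraries 40.5 to 48.7 M. *Pou5f1* mRNA in CreER, the check of the target, averaged 327 CPM ± 3.92 (SD, n = 2) in untreated libraries and fell to 121 CPM ± 8.59 by 36 h, a log2 change of -1.43 (SE 0.045, adjusted p = 4.07e-19, edgeR quasi-likelihood test), whereas in O4AID, where IAA acts on the protein, it was 712 CPM at 0 h and 610 CPM at 24 h. Summed ESC markers, *Pou5f1* itself included, were 2961 to 3056 CPM in the untreated CreER libraries and 2172 to 2217 CPM at 36 h. Of these 7 markers, 5 were called lower and 1 higher at 36 h, beside 17.2% and 19.4% of all genes. In O4AID the sum was 4914 CPM at 0 h and 1640 CPM at 24 h, with 6 of the 7 at least 2-fold lower, beside 3.31% of all genes. The 8 trophectoderm markers summed to 327 to 339 CPM and then 623 to 660 CPM in CreER. There all 8 were called higher at 36 h, beside 19.4% of all genes. In O4AID they summed to 110.5 and then 170.9 CPM, and *Elf5* stayed below 1 CPM. Of the 7 compared there, 4 were at least 2-fold higher at 24 h, beside 4.96% of all genes. Among those 4, *Cdx2* and *Krt7* were at 0.890 and 0.445 CPM at 0 h. Primitive endoderm markers summed to 14.8 to 17.0 and then 37.4 to 38.0 CPM in CreER. At 36 h 2 of 6 tested were higher and 1 lower, beside 19.4% and 17.2% of all genes. In O4AID they summed to 10.0 and then 44.0 CPM, with 3 of 4 compared higher, beside 4.96% of all genes. Among those 3, *Dab2* was at 0.974 CPM at 0 h, and *Foxa2* was below 1 CPM throughout both courses. Fibroblast markers stayed between 9.53 and 12.0 CPM in CreER, with *Twist2* and *Lum* below 1 CPM, and at 39.2 to 55.2 CPM in O4AID, nearly all of it *Pdgfrb*, with *Col1a2*, *Col3a1*, *Twist2* and *Lum* below 1 CPM. None of these markers was at 0 in every library of a course. Mitochondrial transcripts took 8.54% and 9.32% of counts in the untreated CreER libraries but 14.4% and 17.3% at 36 h, and 10.6% in O4AID at 24 h within a range of 6.69% to 10.6%. The part of these cell types and of the mitochondrial share in the results below was not tested, and in bulk RNA fewer cells of a type and less RNA per cell cannot be told apart.

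The sequence just upstream of the gene is shown for 4 members because they stand for the patterns described below. *Cldn3* and *Cldn4* are neighbors that were higher late in both courses, *Cldn6* had the largest rise in O4AID, and *Aqp3* lay on opposite sides of its 0 h level in the courses at 24 h. Each run is the 250 bases before the start of the gene, read 5′ to 3′ on the gene's own strand from RefSeq (build GRCm38.p6), with base -1 at the right-hand end. Capitals mark the GC box (GGGCGG), the E-box (CAGGTG) and the TATA box (TATAAA) on either strand, so that CCGCCC and CACCTG are matches on the opposite strand.

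*Cldn3*, chr5:134985964-134986213, plus strand: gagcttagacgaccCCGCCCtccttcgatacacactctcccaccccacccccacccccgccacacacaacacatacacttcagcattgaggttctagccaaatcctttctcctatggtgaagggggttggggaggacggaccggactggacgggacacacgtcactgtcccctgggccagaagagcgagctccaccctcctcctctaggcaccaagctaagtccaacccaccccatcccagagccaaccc
*Cldn4*, chr5:134946935-134947184, minus strand: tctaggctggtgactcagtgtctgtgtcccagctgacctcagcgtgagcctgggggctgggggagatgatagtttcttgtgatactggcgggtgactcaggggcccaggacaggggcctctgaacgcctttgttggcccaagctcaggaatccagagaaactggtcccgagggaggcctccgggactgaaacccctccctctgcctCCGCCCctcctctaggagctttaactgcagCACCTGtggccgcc
*Cldn6*, chr17:23679115-23679364, plus strand: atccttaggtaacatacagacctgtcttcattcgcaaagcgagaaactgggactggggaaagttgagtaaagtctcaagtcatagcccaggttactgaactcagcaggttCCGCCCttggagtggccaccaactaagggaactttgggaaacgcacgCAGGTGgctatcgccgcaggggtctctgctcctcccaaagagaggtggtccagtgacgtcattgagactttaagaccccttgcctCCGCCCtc
*Aqp3*, chr4:41098184-41098433, minus strand: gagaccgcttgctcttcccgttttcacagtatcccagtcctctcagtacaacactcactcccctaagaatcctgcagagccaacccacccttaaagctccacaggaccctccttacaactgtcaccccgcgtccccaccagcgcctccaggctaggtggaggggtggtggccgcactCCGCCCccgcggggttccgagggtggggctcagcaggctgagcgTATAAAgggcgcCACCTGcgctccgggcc

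The RefSeq promoter table held a window for 8 of the 9 members (not *Jam2*), and *Cldn7* and *Ocln* had 2 windows each. Members are counted below as genes with a match in any window, while the shares over all promoters are per window. These are unlike units, and genes with 2 windows had more room for a match. In *Ocln* only the GC box lay in both windows, and in *Cldn7* no match did. A GC box lay within 250 bases of the start in 8 of these 8 genes, against 32.7% of the 32851 promoters in the table. The E-box letters were found in 6 of the 8 (*Cldn4*, *Cldn6*, *Cldn7*, *Ocln*, *F11r* and *Aqp3*), against 17.2% of all promoters. The TATA box was found only in *Aqp3*, from base -29 to -24, against 12.4% of all promoters. The octamer ATGCAAAT, the classical POU factor sequence, was in none of the 8 and in 1.6% of all promoters. The TFAP2 letters GCCNNNGGC were found only in *Ocln*, where they overlap a GC box (13.7% of all promoters), the TEAD letters GGAATG only in *Cldn7* (12.6%), and the GRHL letters AACCGGTT in none (0.116%). GC content was 60.8% for *Cldn3*, 62.0% for *Cldn4*, 53.6% for *Cldn6* and 64.0% for *Aqp3*, against a median of 52.4% over all promoters. Such matches describe letters in these windows only.

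In CreER, each time was compared with the same 0 h libraries, to see when each member began to change as the gene was deleted. All 9 members passed the low count filter. At 12 h 1 member (*Aqp3*) was called at an adjusted p under 0.05 and was higher, where 0.395% of the 18969 genes tested were called (0.258% higher, 0.137% lower). At 18 h 4 were called higher and 1 lower, beside 8.51% of all genes (4.73% higher, 3.79% lower). At 24 h the count was 5 higher and 1 lower beside 21.6% (11% higher, 10.6% lower), and at 36 h 7 higher and 1 lower beside 36.6% (19.4% higher, 17.2% lower). The median log2 change of the 9 members was 0.026, 0.19, 0.26 and 0.39 at the 4 times, and that of all genes tested lay between -0.00032 and 0.013. With total count scaling in place of TMM, the share of called genes that were higher was 36.9% in place of 65.3% at 12 h, 61.2% in place of 51.0% at 24 h and 36.0% in place of 53.1% at 36 h. The libraries of the later time did not overlap those of 0 h for 4 members at 12 h (38.2% of all genes), 7 at 18 h (50.5%), 9 at 24 h (58.6%) and 8 at 36 h (64.4%).

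From 24 to 36 h, 5 members were called higher (*Cldn3*, *Cldn4*, *Cldn6*, *Cldn7* and *F11r*) and 1 lower (*Jam2*), where 14.7% of all genes were called (8.12% higher, 6.55% lower), and the libraries of both times stood apart for 8 members (55.1% of all genes). This late step depended on the scaling: total counts moved the median of all genes by -0.103 on the log2 scale, left 3 of the 6 members called (*Cldn3*, *Cldn4* and *Jam2*) and placed 17.6% in place of 55.4% of all calls higher. *Cldn7* (log2 0.19, adjusted p = 0.0498) lost its late call when any of 8 of the 10 libraries was left out, *Cldn6* (0.15, adjusted p = 0.0392) when any of 7 was, and *F11r* (0.18, adjusted p = 0.0121) without either 24 h library or the first 36 h library.

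In O4AID, with 1 library at each time, differences have no replicate check and describe those libraries. Members were read by size, as a log2 ratio of CPM plus 1 to the 0 h library, with an interval that covers counting error only, among the 14572 genes with at least 1 CPM in any O4AID library. At 1.5 h 0 members differed at least 2-fold (0.103% of all genes, 0.0274% higher and 0.0755% lower). At 6 h 1 was lower (1.13% of all genes, 0.501% higher and 0.624% lower), and at 10 h 1 was higher and 1 lower (2.49%, being 1.35% higher and 1.15% lower). At 24 h 4 were at least 2-fold higher and 1 lower, beside 8.28% of all genes (4.96% higher and 3.31% lower). The member medians were 0.0059, 0.18, 0.37 and 0.36, and those of all genes lay between -0.0027 and 0.0064.

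**Figure D1:**
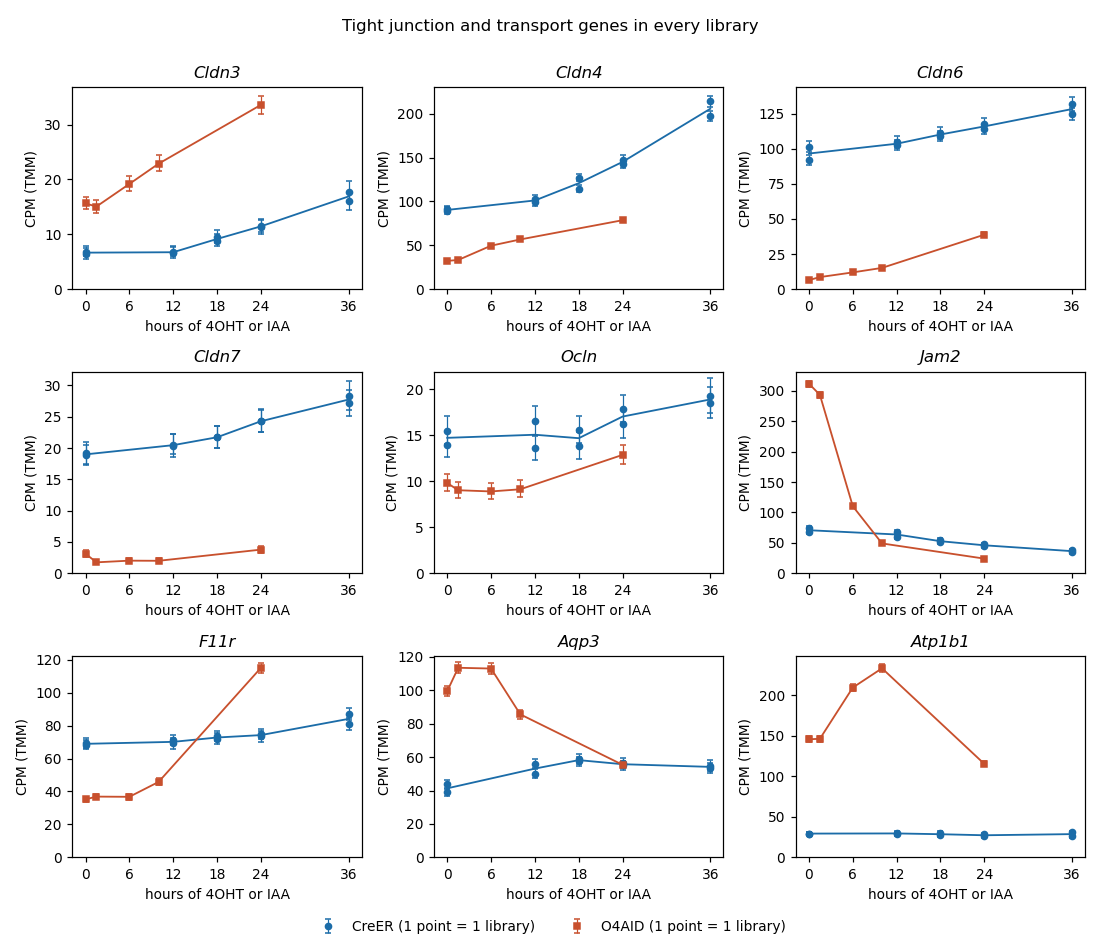
Expression of each member (CPM from 0, linear axis, 1 panel a gene) against hours of 4OHT or IAA, with 1 point for each library, bars for the 95% counting interval and lines through the mean at each time (CreER, n = 2; O4AID, n = 1). The claudins end above their 0 h libraries in CreER, *Jam2* descends in both courses, and *Aqp3* in O4AID passes from 99.4 CPM at 0 h to 55.4 CPM at 24 h.

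*Cldn3* and *Cldn4* encode claudins that bind the enterotoxin of a Clostridium species and tighten epithelial barriers. They lie 39.3 kb apart on chromosome 5 with no annotated gene between, transcribed away from each other (GRCm38; *Cldn4*, ENSMUSG00000047501, 134945119 to 134946934 on the minus strand, and *Cldn3*, ENSMUSG00000070473, 134986214 to 134987472 on the plus strand, each a single exon). *Cldn3* read 6.45 and 6.82 CPM in the CreER libraries at 0 h, 6.82 and 6.61 at 12 h, 9.46 and 8.81 at 18 h, 11.6 and 11.3 at 24 h and 16.0 and 17.8 at 36 h. The 12 h libraries overlapped those of 0 h and every later pair lay above them. It rose from 18 h (log2 change 0.46, SE 0.106, adjusted p = 0.00631, and 0.095 without the first 18 h library) to 36 h, where it stood 2.53-fold higher (1.34, SE 0.098, adjusted p = 1.48e-11). In O4AID *Cldn3* read 15.6, 15.1, 19.2, 22.9 and 33.6 CPM in order of time, 2.08-fold higher at 24 h on the CPM plus 1 scale (log2 1.06, interval 0.94 to 1.18, and 0.90 with a pseudocount of 5). Its exon shares 40 bases with *Wbscr25* on the opposite strand, a gene with a mean of at most 0.18 CPM in either course.

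*Cldn4*, like its neighbor, was called from 18 h on. Its CreER libraries read 89.5 and 91.1 CPM at 0 h, 103 and 99.0 at 12 h, 127 and 114 at 18 h, 143 and 148 at 24 h and 197 and 214 at 36 h. No library after 0 h overlapped the untreated pair, although the 12 h difference was not called (log2 0.16, adjusted p = 0.233). The gene rose at 18 h (0.42, adjusted p = 2.73e-06) and was 2.28-fold higher at 36 h (1.19, SE 0.051, adjusted p = 2.24e-16), with a further rise from 24 to 36 h (0.50, adjusted p = 3.02e-08). O4AID read 32.2, 33.2, 49.5, 56.6 and 78.6 CPM, so that each library from 6 h on lay above the one before, to 2.40-fold at 24 h (1.26, interval 1.18 to 1.35).

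*Cldn6*, a claudin of embryonic epithelia and pluripotent cells (ENSMUSG00000023906, chromosome 17, 23679365 to 23682446, plus strand), had the widest difference of the members between the untreated lines. Its CreER libraries read 101 and 92.1 CPM at 0 h, 103 and 105 at 12 h, 111 and 109 at 18 h, 114 and 118 at 24 h and 125 and 132 at 36 h. This was a shallow climb in which every later library exceeded both untreated ones. *Cldn6* was called from 18 h (log2 0.19, adjusted p = 0.012, lost at 0.061 to 0.228 without the second untreated library or either 18 h library) and was 1.33-fold higher at 36 h (0.41, SE 0.049, adjusted p = 1.18e-07). In O4AID it started low and read 6.40, 8.53, 11.9, 15.1 and 38.8 CPM. It passed 2-fold at 10 h (1.12, interval 0.94 to 1.30) and reached 5.38-fold at 24 h (2.43, interval 2.27 to 2.58), the largest log2 increase of the 9 members in either course. The 10 h value was under 2-fold with a pseudocount of 5 (0.82) or against the 1.5 h library (0.76).

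*Cldn9*, a close relative of *Cldn6*, ends 137 bases from it on the opposite strand and was not a member. In CreER it read 2.44 and 2.33 CPM at 0 h and 6.07 and 5.20 CPM at 36 h and rose (log2 1.25, SE 0.157, adjusted p = 3.4e-07). In O4AID it had 12, 19, 38, 52 and 81 counts, which is 0.254 to 1.70 CPM, with a log2 ratio of 1.11 at 24 h. The annotated transcripts of *Cldn6* share no run of 50 bases with those of another gene.

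*Cldn7*, a claudin found along the sides of many epithelial cells (ENSMUSG00000018569, chromosome 11, 69964779 to 69967885, plus strand), rose in CreER and showed no such course in O4AID. CreER libraries read 19.2 and 18.8 CPM at 0 h, 20.6 and 20.4 at 12 h, 21.7 in both at 18 h, 24.2 and 24.3 at 24 h and 27.2 and 28.3 at 36 h. The pairs were tight and did not overlap 0 h at any time. The rise was called at 24 h (log2 0.36, adjusted p = 0.000321) and was 1.46-fold at 36 h (0.55, SE 0.068, adjusted p = 2.98e-07). O4AID held few *Cldn7* reads, with 147, 78, 83, 81 and 179 counts (3.11, 1.74, 2.00, 1.98 and 3.77 CPM). The 1.5, 6 and 10 h libraries lay below 0 h (log2 -0.59 at 1.5 h, interval -0.85 to -0.32), and the 24 h interval included 0 (0.21, interval -0.031 to 0.45). Against the 1.5 h library the 24 h value was 0.80.

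Per length, the 4 member claudins were set beside each other in RPKM, reads per kilobase of exon per M counted reads. The 4 claudins summed to 131.6 and 126.4 RPKM in the untreated CreER libraries and to 218.2 and 234.4 at 36 h. *Cldn6* was the larger share at 0 h, with 51.2% and 48.4% of the sum beside 37.5% and 39.7% for *Cldn4*. By 36 h their order had turned, with *Cldn6* at 38.0% and 37.5% and *Cldn4* at 49.8% and 50.3%. *Cldn3* went from 3.90% and 4.29% to 5.82% and 6.03%. In O4AID the sum was 35.9 RPKM at 0 h and 97.6 at 24 h, and there *Cldn6* went from 11.8% to 26.4% while *Cldn3* went from 34.5% to 27.3% and *Cldn4* from 49.2% to 44.3%. *Cldn4* thus gained share in CreER, *Cldn6* gained share in O4AID, and *Cldn7* was below 8% of the sum in every library of both courses. These are shares of the 4 members alone: *Cldn12*, a further claudin named after its values were seen, read a mean of 49.9 CPM at 0 h and 48.4 CPM at 36 h in CreER (log2 -0.039, adjusted p = 0.679) and 58.8 and 89.3 CPM at 0 and 24 h in O4AID.

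**Figure D2:**
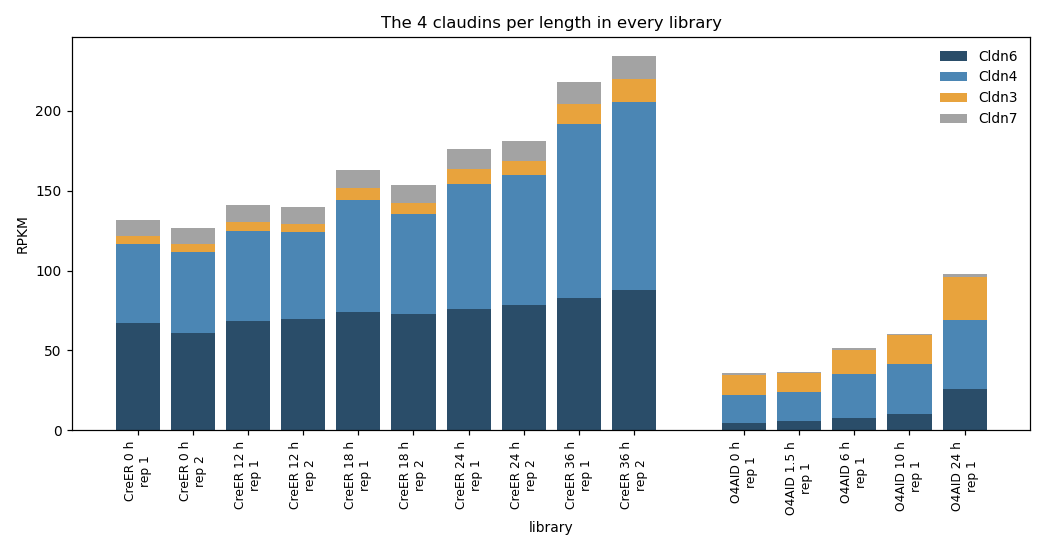
Claudin mRNA per length (RPKM, stacked bars starting at 0, 1 bar for each library), with *Cldn6*, *Cldn4*, *Cldn3* and *Cldn7* as the colored parts. The sum reaches 218.2 and 234.4 RPKM in the CreER libraries at 36 h and 97.6 RPKM in O4AID at 24 h, and *Cldn6* takes 26.4% of that last bar beside 11.8% at 0 h.

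*Ocln* (ENSMUSG00000021638, chromosome 13, 100496507 to 100552718, minus strand), which encodes the membrane protein occludin was called late and by little. CreER libraries read 15.5 and 14.0 CPM at 0 h, 13.6 and 16.5 at 12 h, 13.8 and 15.5 at 18 h, 17.8 and 16.2 at 24 h and 18.5 and 19.3 at 36 h. Libraries of 12 and 18 h overlapped those of 0 h. It was called at 36 h alone, at 1.29-fold (log2 0.36, SE 0.094, adjusted p = 0.00307), and that call was lost without the second untreated library (0.29, adjusted p = 0.056). O4AID read 9.81, 9.02, 8.89, 9.12 and 12.9 CPM, so the 24 h library was the only one above 0 h (0.36, interval 0.20 to 0.52).

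*Jam2* and *F11r*, which encodes JAM-A, moved apart. *Jam2* (ENSMUSG00000053062, chromosome 16, 84774123 to 84825928, plus strand) read 73.7 and 67.8 CPM in CreER at 0 h, 68.1 and 59.3 at 12 h, 54.6 and 50.8 at 18 h, 47.3 and 44.6 at 24 h and 37.9 and 34.7 at 36 h. One 12 h library lay within the untreated pair, and every later library lay below it. *Jam2* fell from 18 h (log2 -0.43, adjusted p = 9.47e-05) and was 1.94-fold lower at 36 h (-0.96, SE 0.069, adjusted p = 4.1e-11). In O4AID it was among the more abundant members at 0 h and read 312, 294, 110, 49.0 and 24.0 CPM. The 1.5 h library was only slightly below 0 h (-0.088, interval -0.12 to -0.054), and the ratio was 2.81-fold lower at 6 h (-1.49, interval -1.54 to -1.44), 6.26-fold at 10 h (-2.65, interval -2.71 to -2.58) and 12.5-fold at 24 h (-3.65, interval -3.73 to -3.56). *Jam2* was the sole member past 2-fold at 6 h.

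*F11r* (ENSMUSG00000038235, chromosome 1, 171437535 to 171464603, plus strand) read 69.4 and 68.5 CPM in CreER at 0 h, 71.0 and 69.3 at 12 h, 71.9 and 73.7 at 18 h, 75.0 and 73.5 at 24 h and 87.2 and 80.9 at 36 h. The first 3 treated times stayed close to the untreated pair and were not called. At 36 h the gene was 1.22-fold higher (log2 0.29, SE 0.049, adjusted p = 3.41e-05). O4AID read 35.2, 36.9, 36.8, 45.8 and 115 CPM, and the 24 h library stood well above the other 4, at 3.20-fold (1.68, interval 1.60 to 1.76). Of the 50-base runs in its transcripts, 0.83% also occur in another gene on the same strand and 0.868% on the opposite strand.

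The balance of the pair per length followed from these values. In CreER *F11r* stood 2.08 and 2.23 times above *Jam2* in RPKM at 0 h and 5.08 and 5.14 times above it at 36 h. O4AID began with *Jam2* 4.02 times above *F11r*, passed 3.61 and 1.36 times at 1.5 and 6 h, and turned over so that *F11r* was 2.06 times above *Jam2* at 10 h and 10.6 times at 24 h. Both lines therefore ended with more *F11r* than *Jam2* mRNA per length, from opposite starting orders.

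**Figure D3:**
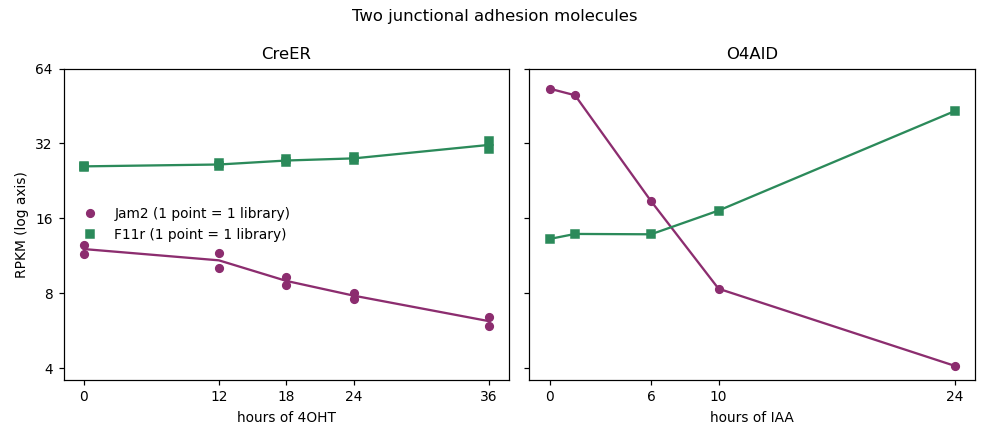
*Jam2* and *F11r* per length (RPKM, log axis) against hours of drug, with 1 panel for each course, 1 point for each library and lines through the mean at each time. In CreER *F11r* lies above *Jam2* throughout, and in O4AID the lines cross between 6 and 10 h.

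*Aqp3* (ENSMUSG00000028435, chromosome 4, 41092722 to 41098183, minus strand) encodes an aquaglyceroporin, a channel for water and glycerol in outer membranes of epithelial cells. It was the only member called at 12 h in CreER and did not keep climbing. The 12 h libraries of *Cldn4*, *Cldn6* and *Cldn7* also stood apart from those of 0 h, without a call. Its libraries read 43.6 and 39.0 CPM at 0 h, 56.2 and 50.1 at 12 h, 58.9 and 57.5 at 18 h, 55.0 and 56.5 at 24 h and 53.3 and 55.0 at 36 h. Every treated library was above both untreated ones. *Aqp3* rose at 12 h by 1.29-fold (log2 0.37, SE 0.062, adjusted p = 0.00373), stood at 1.41-fold at 18 h (0.50, adjusted p = 3.1e-06) and at 0.39 at 36 h (adjusted p = 1.25e-05), and the step from 24 to 36 h was not called (-0.042, adjusted p = 0.713). The 12 h call was lost without the second untreated library (adjusted p = 0.085) or without the first 12 h library (0.325).

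The O4AID libraries read 99.4, 113, 113, 85.6 and 55.4 CPM for *Aqp3*. They were above 0 h at 1.5 h (log2 0.19, interval 0.13 to 0.25) and 6 h (0.18) and below it at 10 h (-0.21) and 24 h (-0.83, interval -0.90 to -0.76, a 1.78-fold lower level). None of these ratios passed 2-fold. With 1 scaling over all 15 libraries, the lowest O4AID library (55.8 CPM, at 24 h) lay below the highest CreER library (58.5 CPM, at 18 h).

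*Atp1b1* (ENSMUSG00000026576, chromosome 1, 164437109 to 164458355, minus strand) encodes the beta 1 subunit of the sodium pump, which helps the pump reach the cell surface. It was the only member not called at any time in CreER. Its libraries read 29.3 in both at 0 h, 30.0 and 29.0 CPM at 12 h, 29.9 and 27.3 at 18 h, 28.4 and 26.1 at 24 h and 30.8 and 26.6 at 36 h. The 36 h libraries lay on either side of the untreated pair, with a log2 change of -0.027 (SE 0.073, adjusted p = 0.809). O4AID read 146, 146, 209, 233 and 115 CPM, in which 10 h was 1.60-fold above 0 h (0.68, interval 0.63 to 0.72) and 24 h was 1.26-fold below it (-0.34, interval -0.39 to -0.28).

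Of the exon bases of *Atp1b1*, 575 (18.7%) overlap *Nme7* on the opposite strand. The counting was not stated to use strand, so how reads there were assigned is not known. *Nme7* read 40.1, 37.3, 38.0, 35.5 and 37.9 CPM in the O4AID libraries and was not called in CreER (36 h log2 0.017, adjusted p = 0.85). The effect of the overlap on the counts of *Atp1b1* was not tested.

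**Figure D4:**
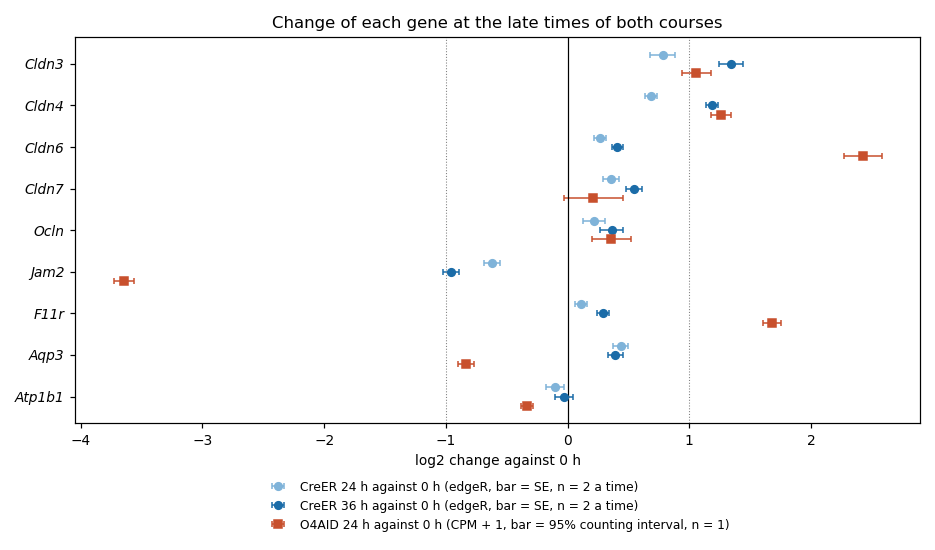
Log2 change against 0 h of each member, for CreER at 24 and 36 h (edgeR, bars are SE, n = 2 a time) and O4AID at 24 h (CPM plus 1, bars are 95% counting intervals, n = 1), with dotted lines at 2-fold. *Cldn6*, *F11r* and *Jam2* lie farther from 0 in O4AID, and *Aqp3* lies on opposite sides of 0.

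The only treated time shared by the courses was 24 h, and there the changes were set side by side on the log2(CPM plus 1) scale. Each rests on its own 0 h libraries, the difference was not tested because O4AID has 1 library a time, and line, strain, route and drug cannot be told apart. The paper reports that the tagged protein is lost soon after auxin is added, whereas deletion of the floxed gene depletes its RNA and protein gradually. In CreER *Pou5f1* mRNA averaged 327 CPM at 0 h and was still at 137 CPM at 24 h. Equal hours of drug were thus not equal times without OCT4, and the part of this in the differences was not tested. The O4AID and CreER changes differed at least 2-fold for 4 of the 9 members, where 6.27% of 16981 genes did. *Cldn6* was at 2.43 in O4AID and 0.26 in CreER, *F11r* at 1.68 and 0.11, and *Jam2* at -3.65 and -0.61. *Aqp3* was at -0.83 in O4AID and at 0.41 and 0.45 in the paired CreER libraries. For comparison, the widest gap between CreER replicates of any time was 0.14 for *Cldn6*, 0.11 for *F11r*, 0.20 for *Jam2* and 0.16 for *Aqp3*. *Cldn3* (1.06 and 0.70) and *Cldn4* (1.26 and 0.68) differed by 0.36 and 0.58, beyond their replicate gaps of 0.15 each but under 2-fold. Those differences depended on the CreER time chosen. The O4AID change at 24 h minus the CreER change at 36 h was -0.17 for *Cldn3* and 0.085 for *Cldn4*. By the same measure *Cldn6* was at 2.02, *F11r* at 1.40, *Jam2* at -2.70 and *Aqp3* at -1.22, each still past 2-fold. At 24 h in both courses *Ocln* differed by 0.16 beside a gap of 0.27, *Atp1b1* by -0.23 beside 0.20, and *Cldn7* by -0.13 beside 0.060. With CreER at 36 h these were 0.018, -0.30 and -0.31. The gaps measure spread in CreER only, and the spread of O4AID libraries is not known. The O4AID value of *Cldn7* rests on 147 and 179 counts, with a counting interval of -0.031 to 0.45.

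The lines already differed before treatment. With 1 TMM scaling over all 15 libraries, 7 of the 9 members differed at least 2-fold between the untreated O4AID library and the mean of the untreated CreER libraries, beside 36.0% of 16303 genes. Higher in CreER were *Cldn6* (96.2 and 6.54 CPM, 14.7-fold), *Cldn7* (18.9 and 3.18, 5.93-fold) and *Cldn4* (89.9 and 32.9, 2.73-fold). Higher in O4AID were *Atp1b1* (149 and 29.2 CPM, 5.10-fold), *Jam2* (319 and 70.4, 4.53-fold), *Aqp3* (102 and 41.1, 2.47-fold) and *Cldn3* (16.0 and 6.61, 2.42-fold). *F11r* (1.90-fold) and *Ocln* (1.46-fold) were higher in CreER by less than 2-fold. No O4AID library of *Cldn4*, *Cldn6*, *Cldn7* or *Ocln* reached the lowest CreER library of that gene at any time, and no CreER library of *Atp1b1* reached the lowest O4AID library.

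Ordered by RPKM, the untreated CreER libraries placed *Cldn6* first at a mean of 64.2, then *Cldn4* at 49.7, *F11r* at 25.9, *Aqp3* at 22.6, *Jam2* at 12.0, *Cldn7* at 9.75, *Atp1b1* at 9.52, *Cldn3* at 5.27 and *Ocln* at 3.48. The libraries of all neighbors in that order stood apart, but counting intervals overlapped between *F11r* and *Aqp3* and between *Cldn7* and *Atp1b1*. At 36 h *Cldn4* led at 113 RPKM before *Cldn6* at 85.3, and *Jam2* had moved to the eighth place at 6.18, above *Ocln* at 4.47. *Cldn7* (14.2) and *Cldn3* (13.4) had overlapping libraries. In untreated O4AID the transport genes and *Jam2* led, with *Aqp3* at 54.4, *Jam2* at 53.1 and *Atp1b1* at 47.3 RPKM, of which the first pair overlapped in counting error. At 24 h *Cldn4* (43.3) and *F11r* (43.2) led without being distinguishable, *Atp1b1* followed at 37.4, and *Jam2* was at 4.09, below *Cldn6* at 25.8.

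Other genes of the junction were taken from lists of related genes, whose counts stand beside the 36.6% of all genes called in CreER at 36 h (19.4% higher, 17.2% lower) and the 8.28% past 2-fold in O4AID at 24 h (4.96% higher, 3.31% lower). Among 7 further claudins tested of 25 listed, 3 were higher and 0 lower in CreER at 36 h, with a median log2 change of 0.83, and *Cldn5*, the claudin of vascular endothelium, was the largest (0.87 to 4.80 CPM, 2.47, SE 0.203, adjusted p = 1.37e-10). The remaining 2 were *Cldn9* and *Cldn23*, the last of them named after its value was seen. In O4AID at 24 h only *Cldn9* of 4 compared passed 2-fold, with a list median of 0.091. *Cldn9* read 0.254 CPM at 0 h and met the 1 CPM limit for being compared only in later libraries. Of 8 other membrane proteins of the junction tested, *Ildr1*, an angulin of tricellular junctions, was higher (0.45, adjusted p = 0.000431) and its relative *Ildr2* lower (-0.55, adjusted p = 0.0219), with a list median of 0.13. In O4AID *Lsr*, another angulin (4.98 and 12.7 CPM, 1.19), and *Marveld2*, which encodes tricellulin (3.41 and 8.90 CPM, 1.17), were at least 2-fold higher among 5 compared, with a median of 0.11.

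A further list held plaque proteins, among them scaffolds that anchor the strands to the cytoskeleton, and apical polarity proteins. All 20 were tested in CreER, where 10 rose, 3 fell and 7 were not called at 36 h, with a median of 0.18. Over all genes 19.4% were higher and 17.2% lower. *Prkcz*, an atypical protein kinase C (0.69, adjusted p = 1.1e-05), *Patj*, a Crumbs complex scaffold (0.62, adjusted p = 1.51e-10), and *Tjp3*, which encodes ZO-3 (0.61, adjusted p = 4.24e-07), rose most. *Ybx3*, the ZO-1-associated nucleic acid binding protein (-0.32, adjusted p = 1.3e-06), *Magi1*, a scaffold (-0.30, adjusted p = 0.000193), and *Cgnl1*, paracingulin (-0.21, adjusted p = 0.0082), fell. In O4AID 2 of 19 were at least 2-fold higher at 24 h and 0 lower, with a median of 0.52, beside 4.96% and 3.31% of all genes. These were *Patj* (24.1 and 76.1 CPM, log2 1.62) and *Cgnl1* (3.37 and 11.6 CPM, 1.53), so *Cgnl1* was lower in CreER and higher in O4AID.

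On the transport side, 3 of 10 other aquaporins were tested in CreER and 1 was higher at 36 h, with a list median of 0.26. That gene was *Aqp9* (0.93, named after its value was seen). *Aqp8* was higher in O4AID at 24 h (log2 1.15, from 0.402 CPM) among 3 compared, with a median of -0.025. Of 12 tested genes for other sodium pump subunits and sodium transport, 5 rose and 1 fell in CreER at 36 h, with a median of 0.24, beside 19.4% higher and 17.2% lower over all genes. The pump regulators *Fxyd6* (1.18, adjusted p = 5.13e-14) and *Fxyd5* (0.80, adjusted p = 0.00438) rose, while the alternative subunit *Atp1b2* fell (-0.81, adjusted p = 0.00012). *Fxyd2* and *Slc9a3r1*, named after their values were seen, also rose. Of 13 compared in O4AID, 1 was at least 2-fold higher at 24 h and 2 were lower, with a median of 0.18, beside 4.96% higher and 3.31% lower over all genes. The lower genes were *Slc9a2*, a sodium-proton exchanger (15.2 and 4.25 CPM, -1.62), and *Slc9a3r1*, the exchanger scaffold NHERF1 (43.3 and 19.8 CPM, -1.09). The higher one was *Fxyd3* (0.254 and 1.81 CPM, 1.16, named after its value was seen), which met the 1 CPM limit only in later libraries.

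Transcription factors of trophectoderm and epithelia included 10 that rose and 3 that fell among 16 in CreER at 36 h, with a median of 0.82. Over all genes 19.4% were higher and 17.2% lower, so the count that fell was close to the share of all genes. *Cdx2* (2.74 to 14.7 CPM, log2 2.43, adjusted p = 1.22e-13), *Eomes* (1.69, adjusted p = 3.16e-15) and *Gata2* (1.69, adjusted p = 1.7e-12), regulators of trophoblast identity, had the largest rises among those with a mean of at least 50 counts. *Elf5*, under that count and named after its value was seen, rose by 2.09 (adjusted p = 7.27e-05). The epithelial regulators *Klf5* (-0.76, adjusted p = 3.07e-07), *Ovol2* (-0.68, adjusted p = 0.000655) and *Grhl2* (-0.37, adjusted p = 3.47e-06) fell. *Grhl2* is known as an activator of claudin genes in epithelia. In O4AID 3 of 13 were at least 2-fold higher at 24 h and 1 was lower, with a median of 0.094. Over all genes 4.96% were higher and 3.31% lower. The higher genes were *Gata2* (0.83 and 6.80 CPM, 2.09), *Hnf4a* (0.85 and 4.99 CPM, 1.70) and *Cdx2* (0.89 and 2.80 CPM, 1.01), each below 1 CPM at 0 h. *Tead4*, a TEAD factor, was lower (48.9 and 18.3 CPM, -1.37).

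**Figure D5:**
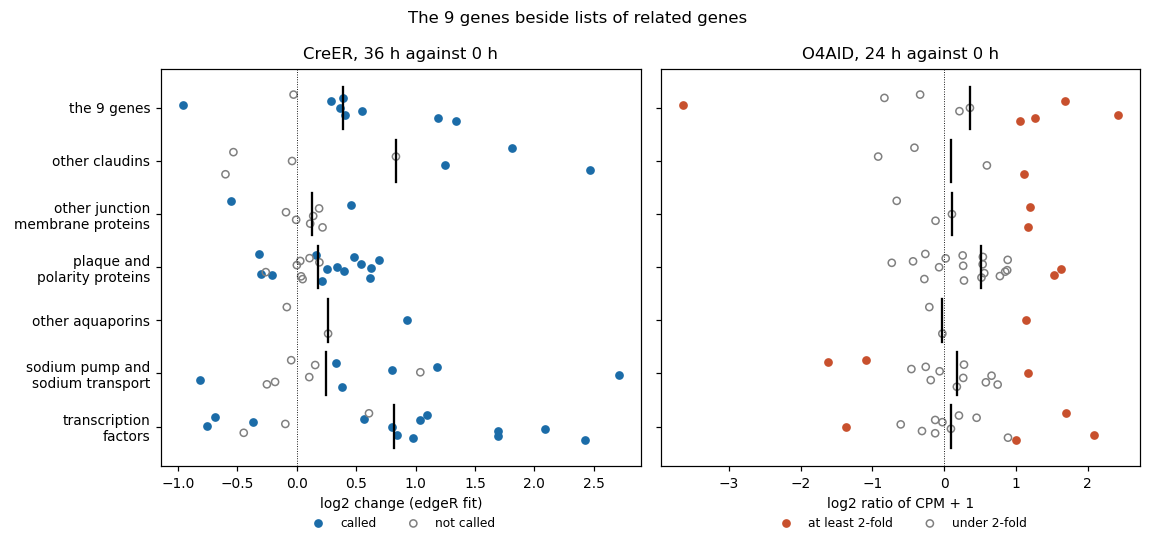
Log2 change of every gene tested or compared in each list (1 point a gene, height within a row carries no value), for CreER at 36 h and O4AID at 24 h, with filled points for genes called by edgeR (CreER) or at least 2-fold changed (O4AID) and a black line at the list median. The 9 members have medians of 0.39 and 0.36, and the plaque and polarity proteins 0.18 and 0.52.

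Genes whose course was most like that of a member were ranked over all 15 libraries by the root mean square difference of log2(CPM plus 1) from their own 0 h level, among 9753 genes with a mean of at least 5 CPM in both courses. *Kctd1* (0.093) and *Cotl1* (0.12) were nearest to *Cldn3*, *Serpinh1* and *Dusp9* (0.10 each) to *Cldn4*, and *Mylip* and *Rec8* (0.17 each) to *Cldn6*. For *F11r* they were *Stap2* and *Anxa2* (0.11 each), and for *Aqp3* they were *Susd2* and *Stac2* (0.15 each). *Atp1b1* had the smallest difference, to *Tfrc* (0.060), the transferrin receptor gene, followed by *Klhl2* (0.099). *Jam2* had the largest, to *Nmnat2* (0.26) and *Tcl1* (0.30), whose own log2 ratios in O4AID at 24 h were -3.29 and -3.38. That library was among those used for the ranking, so these ratios were part of the selection. The difference is not scaled to how far a gene moved, so it does not rank likeness between members. *Cldn7* and *Ocln* moved by less than 2-fold within both courses on the CPM plus 1 scale and were not matched. For *Cldn7* in O4AID the added 1 matters, as its CPM ran from 1.74 at 1.5 h to 3.77 at 24 h.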

How the data were processed

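The authors depleted ribosomal RNA, made directional paired-end libraries, trimmed reads with Trim Galore 0.1.4, aligned them to mm10/GRCm38 with TopHat2 2.1.0 and counted them per gene with featureCounts 1.5.1, per the labels and the study's methods. Strand and multimapping settings were not stated. Each deposited file gives the raw counts of 1 library, as whole numbers. A deposited table of signal values, which the authors normalized with TMM, was not used. The study's calling procedure on merged replicates, which simulates replicates, was replaced by the tests below. Spike-in entries (92) held 0 reads and were left out. Groups came from the sample labels.

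The CreER comparisons used edgeR's quasi-likelihood test (edgeR 4.0.16, R 4.3.3) with TMM factors, filterByExpr, robust dispersion, a prior count of 0.125 and all 10 libraries in one fit, with Benjamini-Hochberg adjustment over 18969 genes and calls at 0.05. Of these steps, only the edgeR fit was tested on simulated data, for the 36 h comparison. Standard deviations are of 2 libraries. Replicates differed by more than sampling noise (chi-square per degree of freedom 3.02 to 7.00). For O4AID, log2 ratios of CPM plus 1 were given with intervals made from the 95% Wilson limits of the read share in each library (SciPy 1.17.1). Reads carry no molecular identifiers, so intervals cover counting error only. Alternatives were other scalings, filters, pseudocounts and references, DESeq2 1.42.0, a replicate block and each library left out.

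The members, lists and comparisons were chosen with earlier results of these data known, the fall of *Jam2* among them. Named genes were the 9 members, *Pou5f1*, up to 3 genes per list and direction at the last time with a mean of at least 50 counts, and the 2 genes most like each member that spanned at least 2-fold. One gene that this rule names is not reported here. Symbols were matched for 48349 of 48709 genes.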

Additional observations from a re-analysis of the deposited data

Results flagged for a closer look

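*Aqp3* differed in direction between the courses at 24 h. Its log2 ratio of CPM plus 1 was -0.83 in O4AID, where the 24 h library was below its 0 h library, and 0.41 and 0.45 in CreER, where both 24 h libraries were above both untreated ones. The difference was not tested, because O4AID has 1 library a time, and its cause was not tested.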

How the results depend on the processing

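No CreER alternative that kept all libraries changed the count of members called at 12, 18, 24 or 36 h, which were 1, 5, 6 and 8 with total counts, RLE factors, DESeq2, either other filter, the replicate block or the 4 libraries compared alone. From 24 to 36 h the count of 6 was 3 with total count scaling and 4 or 5 elsewhere. *Cldn7* lost that call in each of those 7 alternatives, *Cldn6* in 4 and *F11r* with total counts alone. Leaving out 1 library gave 0 to 1 members at 12 h (0 without CreER 0 h replicate 2 or 12 h replicate 1), 3 to 5 at 18 h (3 without 18 h replicate 1), 6 in each case at 24 h, 7 to 8 at 36 h and 3 to 6 from 24 to 36 h (3 without either 24 h library). Uncalled values changed sign. With total counts these were -0.014 for *Ocln*, -0.029 for *Atp1b1*, -0.014 for *F11r* and -0.023 for *Cldn3* at 12 h, -0.013 for *Ocln* at 18 h and -0.031 for *Atp1b1* from 24 to 36 h. *Ocln* at 18 h was also -0.0031 with RLE, -0.0077 with DESeq2 and -0.0014 without a filter. Without 1 library, the uncalled log2 changes spanned 0 for *Cldn3* (-0.022 to 0.059), *Ocln* (-0.11 to 0.17) and *Atp1b1* (-0.019 to 0.032) at 12 h, for *Ocln* (-0.086 to 0.082) and *Atp1b1* (-0.11 to 0.026) at 18 h, and for *Atp1b1* at 36 h (-0.14 to 0.066) and from 24 to 36 h (-0.038 to 0.18).

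In O4AID the count of 2 members past 2-fold at 10 h became 1 with a pseudocount of 5 or with 1.5 h as the reference, the member lost being *Cldn6*. At 24 h *Cldn3* was under 2-fold with a pseudocount of 5 (log2 0.90), so the count at that time was lower as well. Of 207 O4AID values under alternatives, 179 stayed within their counting interval and 28 did not. The 24 h comparison of courses gave 4 members under both alternatives, and total counts gave 8 in place of 7 between untreated lines. The replicate numbers gave correlations of -0.0887 to 0.0958 between times over 13486 genes, so they were not taken as pairs, and the replicate block moved the late count from 6 to 5.

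Over all genes, the calls that moved by over 1.5 times were those of DESeq2 (956 beside 1615 at 18 h, 2571 beside 4089 at 24 h, 1606 beside 2784 from 24 to 36 h), of no filter at 12 h (222 beside 75), and those without 1 library (8 to 218 at 12 h, 581 to 2006 at 18 h, 2343 to 4510 at 24 h and 1491 to 3166 late). In O4AID a pseudocount of 0.1 or 5 gave 90 or 7 genes beside 15 at 1.5 h, 407 or 58 beside 164 at 6 h, 732 or 146 beside 363 at 10 h and 1912 or 497 beside 1206 at 24 h, and the 1.5 h reference gave 87 at 6 h. The causes were not tested.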
